A study of Homo sapiens with 8 samples.

Results

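H3K27ac, an acetylation of histone H3 found at active promoters and enhancers, was examined at 4 genes that make, feed or recycle glutathione: GCLC, GCLM, SLC7A11 and GSR. The cells were A549, an established line from a human lung adenocarcinoma. Its NRF2, the transcription factor that drives antioxidant genes, is constitutively active. Cells had received CEBPB siRNA-1, CEBPB siRNA-2 or a control siRNA, and chromatin was taken 24 h after a medium change that itself followed transfection by 24 h. The immunoprecipitated libraries were 1 with each CEBPB siRNA and 2 with the control siRNA, all from the same line, and the 2 siRNAs served as the replicates of the knockdown. Whether the 2 control libraries stem from separate cultures is not stated in the labels, and p-values then cover only the differences among these libraries, which can be technical. Peaks counted as members where they touched a gene span, given in Mb on hg19, or the 50 kb on either side of it. The spans were 53.362 to 53.482 on chromosome 6 for GCLC, 94.353 to 94.375 on chromosome 1 for GCLM, 139.085 to 139.164 on chromosome 4 for SLC7A11, and 30.536 to 30.585 on chromosome 8 for GSR. This gave 165 peaks of the 186774 on chromosomes 1 to 22 and X: 40 under siRNA-1, 44 under siRNA-2, 37 in control 1 and 44 in control 2. With no annotation of hg19 at hand, marker genes of the cell line and the siRNA target were not looked up among the peaks.

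Glutathione is the main small thiol that protects cells from oxidants. GCLC is the catalytic and GCLM the modifier subunit of glutamate-cysteine ligase, which carries out the first and rate-limiting step of glutathione synthesis. SLC7A11, also called xCT, is the light chain of the antiporter that brings in cystine in exchange for glutamate, and cystine supplies the cysteine for that step. GSR, glutathione reductase, uses NADPH to return oxidised glutathione to its reduced form. All of them are known NRF2 target genes. CEBPB is a basic leucine zipper factor, a class of proteins that bind DNA as dimers and to which NRF2 also belongs.

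RefSeq promoter sequences on GRCh38.p14 matched 2 of the 4 genes, GCLC and GCLM, and are shown because they hold short matches to the motifs of NRF2 and of C/EBP factors. Each runs 5′ to 3′ along the gene, from 250 bases before its RefSeq start to 50 bases after it. Capitals mark a motif match on either strand. GCLC lies at chr6:53545052-53545351 and GCLM at chr1:93909381-93909680, both on the minus strand.
GCLC: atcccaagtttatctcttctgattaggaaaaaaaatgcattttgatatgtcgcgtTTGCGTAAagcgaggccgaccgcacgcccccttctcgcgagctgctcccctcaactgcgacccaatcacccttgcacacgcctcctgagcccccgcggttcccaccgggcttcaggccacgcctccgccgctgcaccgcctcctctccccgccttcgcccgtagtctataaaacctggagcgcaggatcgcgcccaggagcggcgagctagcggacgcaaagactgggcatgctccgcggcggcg
GCLM: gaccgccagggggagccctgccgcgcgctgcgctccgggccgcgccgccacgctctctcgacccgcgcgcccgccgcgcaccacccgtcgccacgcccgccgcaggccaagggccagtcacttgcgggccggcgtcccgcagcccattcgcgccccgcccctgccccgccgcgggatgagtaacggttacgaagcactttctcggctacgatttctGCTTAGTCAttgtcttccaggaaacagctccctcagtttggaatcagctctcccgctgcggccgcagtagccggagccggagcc
In GCLC the match is TTGCGTAA, 195 to 188 bases before the start, to the C/EBP motif TTGCNNAA. In GCLM the match is to the core of the antioxidant response element, TGACNNNGC, which NRF2 binds. It lies on the strand opposite to the gene, 34 to 26 bases before the start, where that strand reads TGACTAAGC. The C/EBP motif had a match in 10.5% of 35116 RefSeq promoters of this length and the antioxidant response element core in 13.3%. The C/EBP-ATF composite motif TGATGNAA had no match in these windows and a match in 3.62% of all promoters. All motifs were searched on both strands, and the marked matches do not overlap. These are matches of letters and were not placed on the hg19 peaks.

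The 165 peaks merged into 39 regions, and acetylated regions of all 4 genes were called with and without CEBPB knockdown. Merging joined peaks of any library that overlapped by 1 bp or more. Of the 39 regions, 24 were called in all 4 libraries: 9 of 18 around GCLC, 3 of 3 around GCLM, 6 of 11 around SLC7A11 and 6 of 7 around GSR. No region was lost, meaning called in both controls and with neither siRNA, among the 24 called in both controls. Over all chromosomes used, 13.3% of 32069 such regions were lost, and 0 of 24 allows a share of up to 12.5% by counting error. That limit takes the 24 as independent, although regions of 1 gene share their surroundings. It therefore cannot show that these genes differ from the background. The regions of the 4 genes were also stronger: the lower of the 2 control −log10 q values had a median of 25.3 in the 24 regions and of 16.9 in all 32069. The part of that strength in the count was not tested. The data held 1 gained region, inside the GCLC span, meaning called with both siRNAs and in neither control. That is 1 of 27 regions called with both siRNAs, where the background was 13.6%. With either control left out the count of lost regions was 5, and with either siRNA left out the count of gained regions was 5, since fewer calls are then asked for. No share over all regions was taken for these settings.

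**Figure D1:**
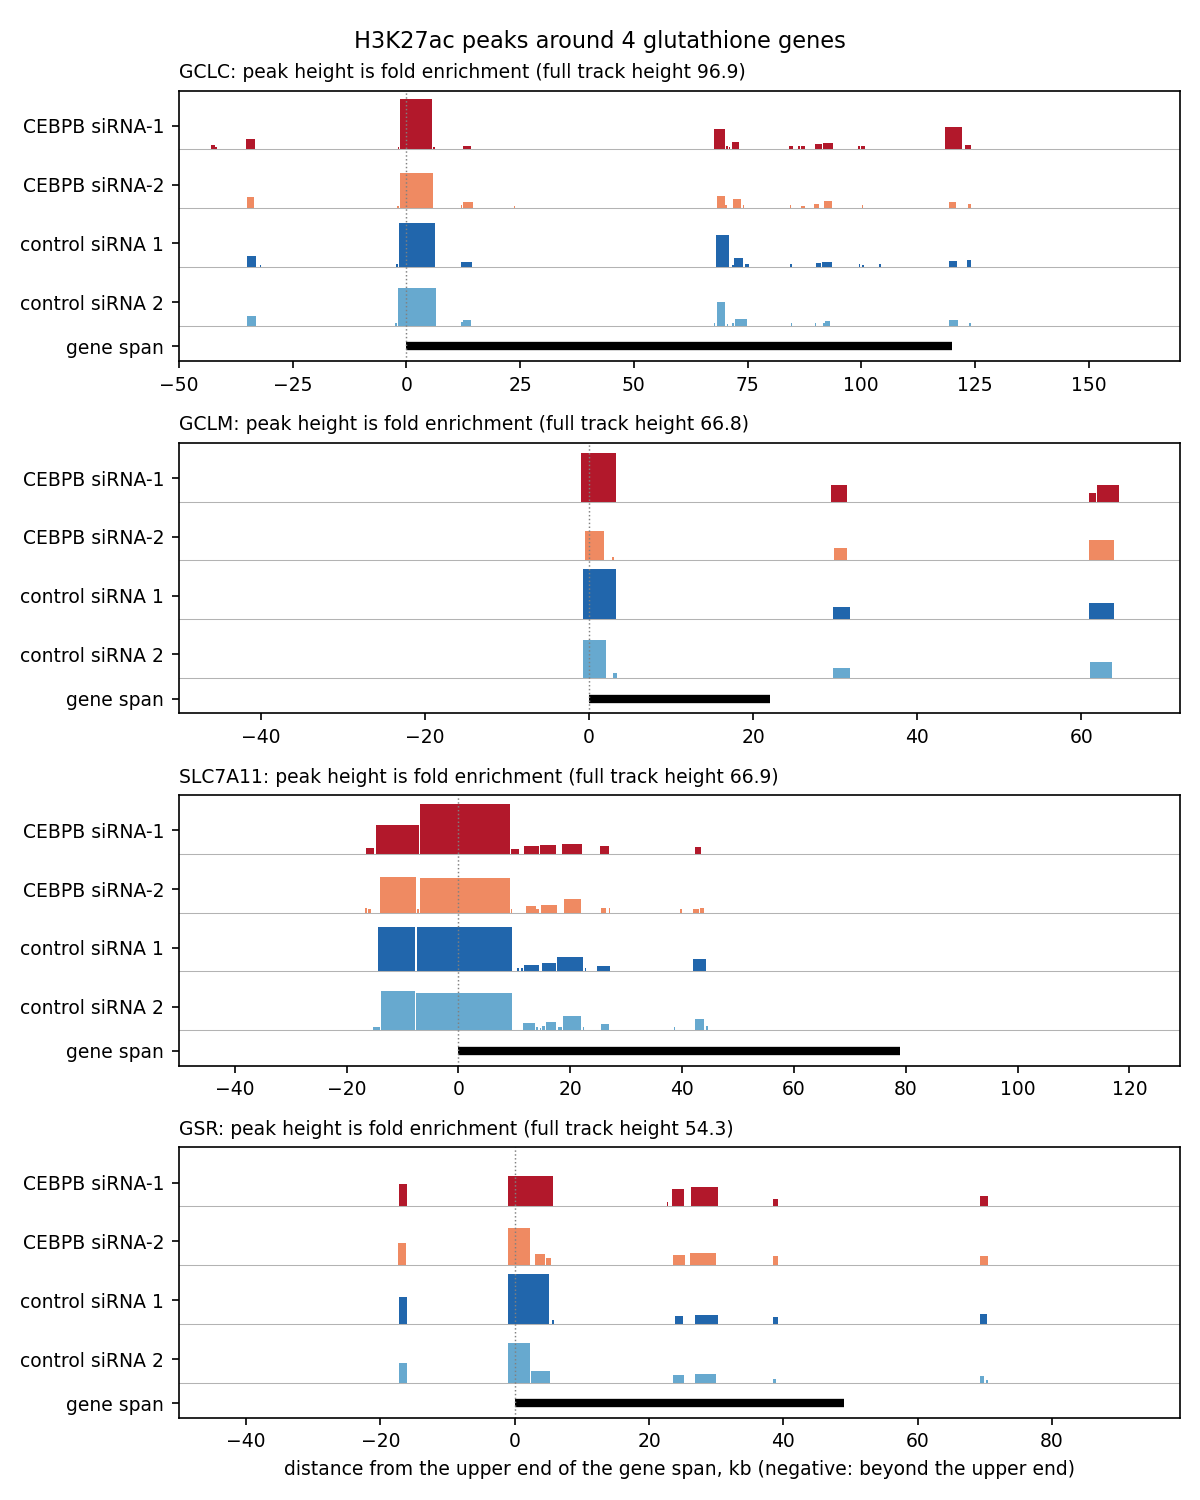
Deposited peaks of each library around GCLC, GCLM, SLC7A11 and GSR, against distance in kb from the upper end of the gene span, with negative values beyond that end and the span as a black bar. Rectangles run from peak start to peak end, and their height is the fold enrichment on a linear scale set per gene, to be read within a track. In every track the tallest or broadest signal lies over the upper end of the span.

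The remaining 14 regions were each called in 1 to 3 libraries and were neither lost nor gained. Of these, 11 were called in a single library: 4 under siRNA-1, 2 under siRNA-2, 4 in control 1 and 1 in control 2. Their fold enrichments, which are the authors' values for each peak over the background of its own library, ran from 3.55 to 7.46. The highest was an 834 bp peak called under siRNA-1 beyond the upper end of the GCLC span (chromosome 6, 53524123 to 53524956). The longest region outside the shared 24 was 1646 bp, just beyond the large SLC7A11 region (chromosome 4, 139178985 to 139180630), and it was singled out after its values were seen. Called length there was 1406 bp under siRNA-1 and 820 bp under siRNA-2, against none in control 1 and 321 bp in control 2. Both knockdown libraries thus had more of it called than both controls.

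The share of its surroundings that was acetylated set SLC7A11 apart from the other genes in every library. It had 21.4% of its window under peaks under siRNA-1 and 19.5% under siRNA-2, against 21.7% in control 1 and 20.8% in control 2. Around GCLC the share was 13.5% under siRNA-1 and 10.5% under siRNA-2, against 12.1% and 10.6% in the controls. At both genes the siRNA-2 library had the least called. Around GSR it was 10.8% and 9.71%, against 9.46% and 9.21%. Around GCLM it was 8.08% and 5.95%, against 7.57% and 6.55%. The lowest SLC7A11 value lay above the highest of any other gene. GCLC and GSR overlapped each other over the 4 libraries, and so did no other neighbours in that order.

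**Figure D2:**
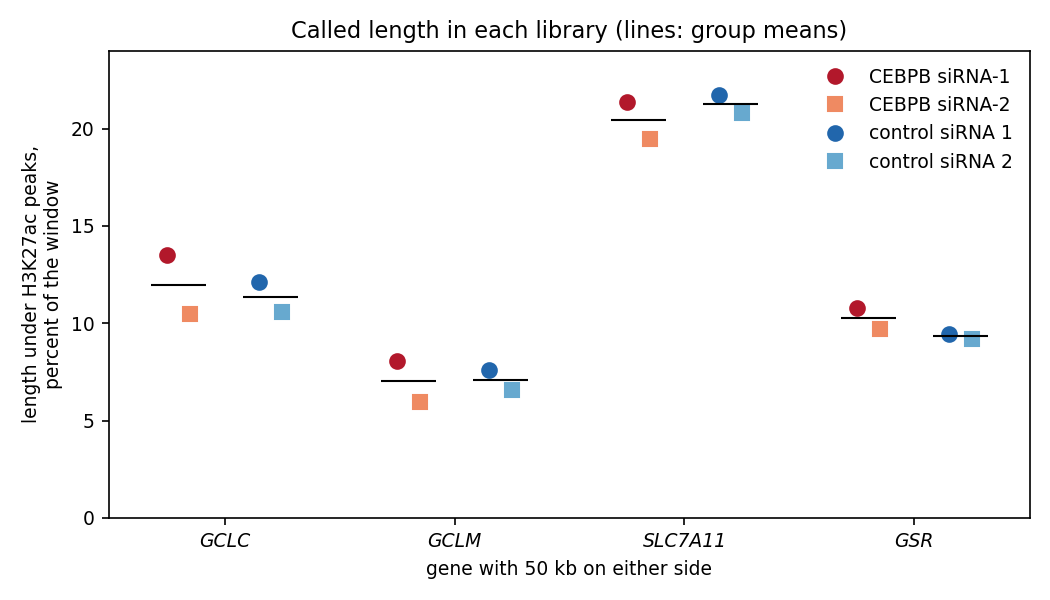
Share of each gene window lying under H3K27ac peaks, in percent, with 1 point per library and a line at each group mean of 2 libraries. Knockdown and control points interleave for GCLC, GCLM and SLC7A11, and the 2 knockdown points for GSR, 10.8 and 9.71%, lie above its 2 control points.

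GSR was the only one of the 4 windows in which the treatments did not overlap in called length. It had 16.1 kb called under siRNA-1 and 14.5 kb under siRNA-2, against 14.1 and 13.7 kb in the controls. The means were 15.3 ± 1.14 kb after knockdown and 13.9 ± 0.267 kb in controls (SD, n = 2 each), a difference of 1.37 kb (exact permutation test, two-sided, p = 0.333, the smallest that 2 against 2 can give). Such a pattern is common: of the 150 kb tiles with peaks in all 4 libraries, 31.1% had more called length in both knockdown lists than in both controls, and 27.7% had less. SLC7A11 averaged 36.6 ± 2.37 kb after knockdown and 38.1 ± 1.12 kb in controls (SD, n = 2 each; exact permutation p = 0.667). GCLC averaged 26.3 ± 4.73 kb after knockdown and 24.9 ± 2.36 kb in controls (SD, n = 2 each; exact permutation p = 1). GCLM averaged 8.56 ± 1.83 kb after knockdown and 8.62 ± 0.878 kb in controls (SD, n = 2 each; exact permutation p = 1). These 3 differences were within the spread between replicates, and their sign rests on single libraries. The GCLC difference of 1.40 kb was -1.95 kb without siRNA-1 and -0.27 kb without control 2. The GCLM difference of -0.06 kb was 1.24 kb without siRNA-2 and 0.56 kb without control 1, and the SLC7A11 difference of -1.51 kb was 0.16 kb without siRNA-2. The GSR difference stayed above 0 without any 1 library, from 0.56 kb without siRNA-1 to 2.18 kb without siRNA-2.

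Base by base, most of the sequence called at these genes was called in all 4 libraries. This came to 66.7 kb over the 4 windows. Both knockdown libraries and neither control covered 3.37 kb, which was 4.49% of the bases shared by the knockdown libraries, against 12.6% over all chromosomes used. Both controls and neither knockdown library covered 3.39 kb, or 4.42% of the bases shared by the controls, against 12.4% over all chromosomes used. Both shares lay below their background. By gene the knockdown-only share ran from 0.58% at GCLM to 6.34% at GSR. The control-only share ran from 0.21% at GSR to 9.20% at GCLC. Knockdown-only bases amounted to 1.30 kb around GCLC, 0.041 kb around GCLM, 1.14 kb around SLC7A11 and 0.888 kb around GSR. Control-only bases amounted to 1.96 kb around GCLC, 0.296 kb around GCLM, 1.11 kb around SLC7A11 and 0.027 kb around GSR. Of the bases that separated the treatments, nearly all around GSR were knockdown-only and nearly all around GCLM were control-only. The Jaccard index, the bases called in both of a pair of libraries over those called in either, was 0.782 to 0.834 between a knockdown and a control library around GSR and 0.802 to 0.819 around SLC7A11. For those pairs it was 0.574 to 0.613 over all chromosomes used, below the range of either gene. Around GCLC it was 0.569 to 0.688 for such pairs, a range that includes the one over all chromosomes used. There it was 0.647 between the knockdown libraries and 0.742 between the controls. Around GCLM it was 0.719 to 0.845 for such pairs, 0.709 between the knockdown libraries and 0.835 between the controls. The knockdown libraries were at 0.847 around GSR, 0.832 around SLC7A11 and 0.659 over all chromosomes used. The controls were at 0.856, 0.845 and 0.765 in the same order. Pairs of the same treatment were thus also above their background around GSR and SLC7A11. Strength was not matched in these comparisons with the other chromosomes.

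GCLC, the catalytic subunit, had its strongest acetylation over the upper end of the span, in a 9.20 kb region (chromosome 6, 53475378 to 53484575). Fold enrichment there was 82.4 under siRNA-1 and 57.8 under siRNA-2, against 72.3 in control 1 and 61.4 in control 2. Its called length was 7628 bp under siRNA-1 and 7591 bp under siRNA-2, against 8309 and 9072 bp in the controls. The region was thus shorter in both knockdown lists, with a mean difference of -1081 bp (knockdown minus control), and its summits lay within 146 bp of each other. RefSeq gives GCLC a length of 47.8 kb, well under the 120 kb of the span used here, and lists the long noncoding RNA KILH as the next gene beyond its start. The upper end of this span is therefore not the RefSeq start of GCLC. Counted from the lower end of the span, 47.8 kb stops well short of this region. Which transcript the region belongs to was not settled by the peaks, and the RefSeq start was not placed on hg19.

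The next strong region of the GCLC window in the controls lay inside the span, 48.8 to 52.4 kb above its lower end (chromosome 6, 53410764 to 53414417). That is beyond the 47.8 kb RefSeq length of GCLC counted from that end. Fold enrichment was 33.6 under siRNA-1 and 20.0 under siRNA-2, against 52.8 in control 1 and 38.3 in control 2. As a percent of the window's strongest region in the same list, over the upper end of the span, this was 40.8% under siRNA-1 and 34.7% under siRNA-2. In the controls it was 73.0% and 62.4%. The region kept the same place, with summits within 82 bp, and its called length overlapped between the treatments (3309 and 2126 bp against 2757 and 2460 bp). Beside it, 44.7 to 48.5 kb above the lower end, lay a region chosen after its values were seen (chromosome 6, 53406659 to 53410458). Counted from the lower end, the 47.8 kb RefSeq length of GCLC ends inside this region. That would put the RefSeq start of GCLC there, although it was not placed on hg19. The called length of the region was 1552 bp under siRNA-1 and 2144 bp under siRNA-2, against 3246 and 3038 bp in the controls. Both knockdown lists were shorter there, with a log2 ratio of -0.77 between the means, knockdown over control.

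At the lower end of the GCLC span the siRNAs parted. A region over that end (chromosome 6, 53359872 to 53363579) had 3708 bp called and a fold enrichment of 37.4 under siRNA-1, and 1679 bp and 10.0 under siRNA-2. The controls had 1722 and 1897 bp, at fold enrichments of 9.84 and 9.85. Only the siRNA-1 library stood apart, and the siRNA-2 library had less called than either control. The single gained region lay further inside the span (chromosome 6, 53394267 to 53395273), with 1007 bp at a fold enrichment of 5.04 under siRNA-1 and 807 bp at 3.96 under siRNA-2. These peaks stood at percentile 29.1 of the siRNA-1 list and 11.2 of the siRNA-2 list by −log10 q. Beyond the upper end, a region 33.0 to 35.3 kb away (chromosome 6, 53514990 to 53517298) had 1951 and 1643 bp called with the siRNAs, against 2091 and 2001 bp in the controls.

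GCLM, the modifier subunit, had a single region of its own, over the upper end of the span, where its RefSeq length of 24.2 kb and the 22 kb span place the start. This 4.36 kb region (chromosome 1, 94371636 to 94375998) had fold enrichments of 54.8 under siRNA-1 and 33.9 under siRNA-2, against 56.8 in control 1 and 43.1 in control 2. Called length was 4340 bp under siRNA-1 and 2573 bp under siRNA-2, against 4085 and 3211 bp in the controls. The siRNA-1 library was the longest and the siRNA-2 library the shortest, so the treatments overlapped (exact permutation p = 1, n = 2 each). All 4 summits fell within 64 bp. No other peak was called in the span or in the 50 kb beyond its upper end, in any library.

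The other 2 regions of the GCLM window lay beyond the lower end of the span, where RefSeq lists DNTTIP2 and then BCAR3 as the next protein-coding genes. The nearer one (chromosome 1, 94343144 to 94345518) had 1989 and 1627 bp called under siRNA-1 and siRNA-2, against 2090 and 2098 bp in the controls. It was shorter in both knockdown lists, and its fold enrichment was 34.2% and 41.7% of the GCLM start region with the siRNAs, against 23.7% and 26.7% in the controls. The farther one (chromosome 1, 94310364 to 94314086) had 3523 and 3063 bp, against 3061 and 2685 bp, and was longer in both knockdown lists, although the siRNA-2 and control 1 values were nearly equal.

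SLC7A11, the cystine importer, lay under the broadest acetylation of the 4 genes. Its main region ran for 25.7 kb (chromosome 4, 139153192 to 139178842), from 10.8 kb inside the span to 14.8 kb beyond the upper end. That is longer than 99.8% of the 24133 regions called in all 4 libraries, where it ranked 44 by length. Called length was 25.2 kb under siRNA-1 and 23.1 kb under siRNA-2, against 23.8 and 23.9 kb in the controls. The siRNA-1 library was the longest and the siRNA-2 library the shortest, so knockdown and control overlapped (exact permutation p = 1, n = 2 each).

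Each library split this domain into a pair of large peaks with a gap near 7 kb beyond the upper end of the span. The peak over the upper end was 16.2 kb long under siRNA-1 and 16.1 kb under siRNA-2, against 16.9 kb in control 1 and 17.1 kb in control 2. It was shorter in both knockdown lists, but its length depends on where each list broke the domain. Separate peaks below it in the same region were 1338 bp under siRNA-1, 306 bp under siRNA-2 and 339 bp in control 1. They are not in the lengths given. The fold enrichment of the peak over the upper end was 56.9 under siRNA-1 and 39.1 under siRNA-2, against 50.5 and 41.9 in the controls. The outer peak was 7.69 kb under siRNA-1 and 6.35 kb under siRNA-2, against 6.60 and 6.06 kb in the controls. Its fold enrichment was 32.7 under siRNA-1 and 40.4 under siRNA-2, against 51.2 and 44.5 in the controls. In both controls and under siRNA-2 the outer peak was the higher of the pair, and under siRNA-1 it was the lower. The pair was nearly equal in control 1 (51.2 against 50.5) and under siRNA-2 (40.4 against 39.1).

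Inside SLC7A11 lay 5 further shared regions, of which 2 were shorter in both knockdown lists, 1 was longer in both and 2 overlapped. By the group means alone 4 of the 5 had less called after knockdown, as had 48.4% of all 24133 regions called in every library. Of the 2 shorter ones, 1 lay deepest in the span, 41.9 to 44.6 kb below the upper end (chromosome 4, 139119377 to 139122122). It had 1103 bp called under siRNA-1 and 1643 bp under siRNA-2, against 2341 and 2031 bp in the controls, and its fold enrichments were 7.57 and 4.70, against 13.8 and 12.8. As a share of the main region of the same list, that fold enrichment was 13.3% and 12.0% with the siRNAs, against 27.2% and 30.5% in the controls. Both knockdown values were under both control values on either measure. A region 17.6 to 22.5 kb below the upper end (chromosome 4, 139141493 to 139146365) had 3566 and 2906 bp with the siRNAs, against 4601 and 4316 bp, and was also shorter in both knockdown lists. Its share of the main region's fold enrichment overlapped, at 20.5% and 40.9%, against 33.7% and 40.1%. The neighbouring region (chromosome 4, 139146437 to 139149467) went the other way in length, with 2837 and 2860 bp against 2549 and 2562 bp. RefSeq lists the antisense gene SLC7A11-AS1 as overlapping SLC7A11, and a histone mark does not show which strand is transcribed.

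GSR, glutathione reductase, had its strongest region over the upper end of the span (chromosome 8, 30579139 to 30586035). Fold enrichment was 28.1 under siRNA-1 and 34.2 under siRNA-2, against 46.1 in control 1 and 36.0 in control 2. Called length was 6688 and 5614 bp with the siRNAs, against 6415 and 6165 bp, so the treatments overlapped (exact permutation p = 1, n = 2 each). Summits lay within 140 bp.

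The largest mean length difference of the GSR window lay inside the gene, in the only inner region longer in both knockdown lists. A region 26.1 to 30.3 kb below the upper end (chromosome 8, 30554741 to 30558916) had 4090 bp called under siRNA-1 and 3896 bp under siRNA-2, against 3411 and 3082 bp in the controls. The means were 3993 ± 137 bp after knockdown and 3246 ± 233 bp in controls (SD, n = 2 each; exact permutation p = 0.333). Its fold enrichment was 17.5 under siRNA-1 and 11.0 under siRNA-2, against 8.44 and 7.47. As a share of the GSR start region in the same list, this was 62.4% and 32.3%, against 18.3% and 20.7%. Its neighbour (chromosome 8, 30559672 to 30561659) had fold enrichments at 57.3% and 27.5% of the start region with the siRNAs, against 14.9% and 20.1% in the controls. Called length there overlapped, at 1929 and 1700 bp against 1186 and 1702 bp. Beyond the upper end, where RefSeq lists UBXN8 as the next gene, a region (chromosome 8, 30600987 to 30602425) had 1270 and 1274 bp, against 1245 and 1205 bp. It was longer in both knockdown lists, by less than the shifts inside the gene. So was a region beyond the lower end, outside the naming rule (chromosome 8, 30514479 to 30515807). It had 1152 and 1220 bp, against 1109 and 1107 bp.

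Over the 24 regions called in every library, length shifts went both ways and about as often as elsewhere. Knockdown lists were both shorter in 6 of 24, where the background over all such regions was 25.6%, and both longer in 5 of 24, where it was 26.9%. The 6 shorter regions were 3 around GCLC, 1 around GCLM and 2 around SLC7A11, with none around GSR. The 5 longer ones were 1 around GCLM, 1 around SLC7A11 and 3 around GSR, with none around GCLC. The median log2 ratio of mean called length, knockdown over control, was 0.04 over the 24 and 0.01 over all 24133. It was 0.06 for GCLC, -0.08 for GCLM, -0.28 for SLC7A11 and 0.20 for GSR. With 1 library left out, fewer values have to separate. Shorter regions then numbered 14 without siRNA-1, and longer ones 14 without siRNA-2 and 12 without control 1. The lowest such counts were 4 shorter without control 1 and 6 longer without control 2. Shares over all regions were not taken for these settings, so the counts cannot show dependence on a single library. Regions of 1 gene share their surroundings and are not replicates of the treatment.

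**Figure D3:**
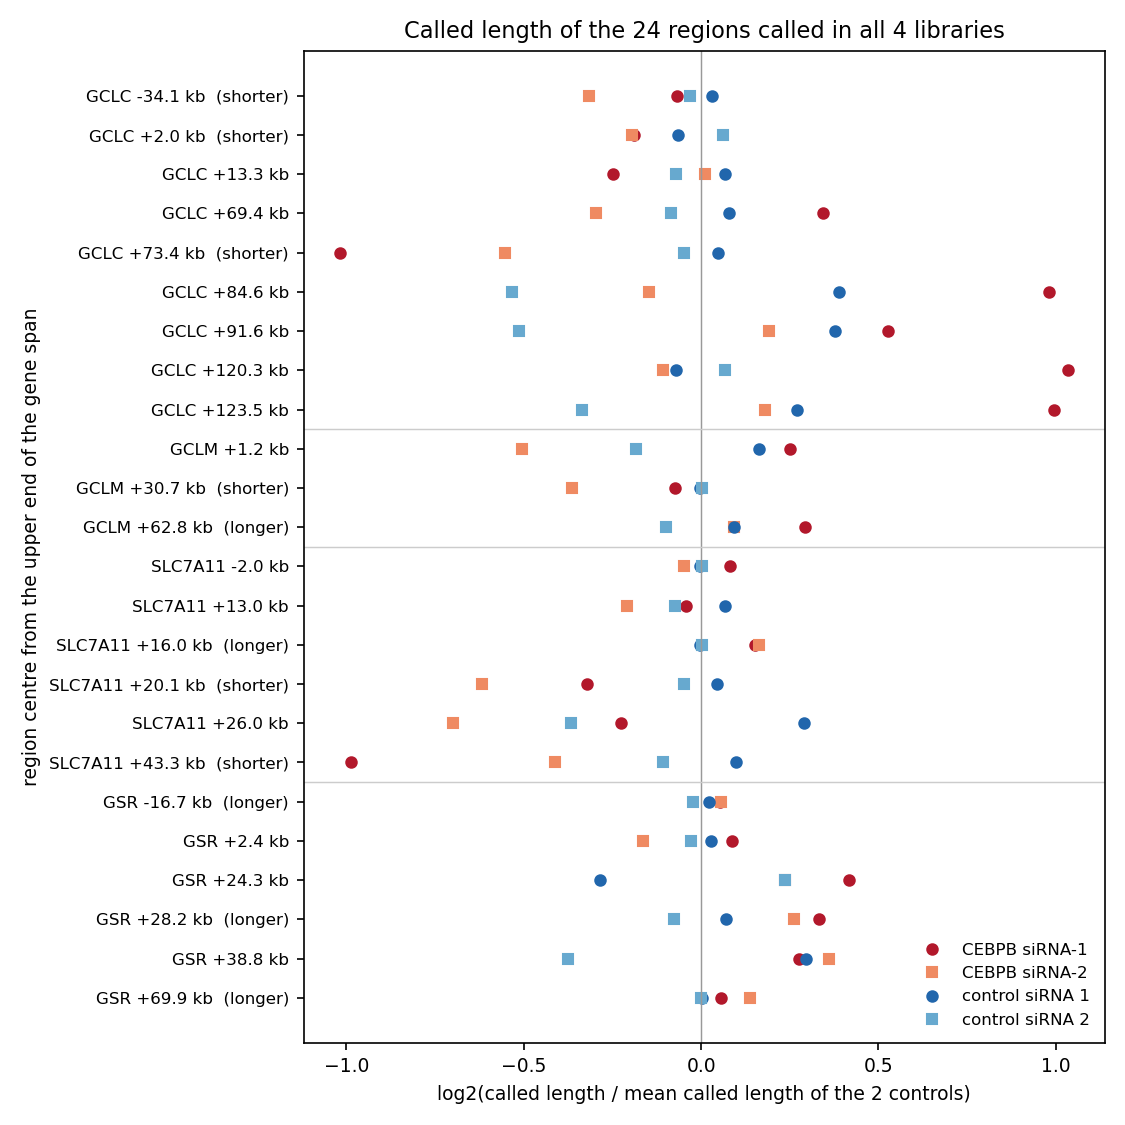
Called length of each of the 24 regions called in all 4 libraries, as log2 of its ratio to the mean of the 2 controls, with 1 point per library. Rows are grouped by gene and labelled with the centre's distance from the upper end of the span. SLC7A11 rows fall mostly left of 0 for the siRNAs and GSR rows mostly right of 0.

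Fold enrichments of different lists cannot be set against each other directly, since each is taken over the background of its own library, whose depth is unknown. Each of the other 20 shared regions was therefore expressed as a percent of the strongest region of its window in the same list. This measure was chosen after the values were seen, and whether it removes every effect of depth was not tested. This percent was lower in both knockdown lists in 2 of 20, where the background within 150 kb tiles was 24.4%. Those were the deepest SLC7A11 region and the GCLC-window region 48.8 to 52.4 kb above the lower end of its span. The percent was higher in both in 8 of 20, where the background was 30.9%. The 8 were 5 of the 5 such regions in the GSR window, 2 in the GCLC window and 1 in the GCLM window. Those of the GSR window include the region beyond the upper end, where RefSeq lists UBXN8 next, and the region beyond the lower end. The GCLM-window region also lay beyond the lower end of its span. The regions of the GSR window share the same denominator, the start region, so they are not separate counts. That denominator was itself lower in both knockdown lists, which raises every such percent there. The deposited fold enrichments themselves were higher in both knockdown lists in the 2 regions inside GSR given above and overlapped in the other 3. Both this and the lower denominator are comparisons between lists of unknown depth, so they describe the deposited values only. The 5 include a pair of regions outside the naming rule. Those are 1 beyond the lower end, at 34.3% and 24.9% with the siRNAs against 19.8% and 15.7% in the controls, and 1 lying 38.4 to 39.2 kb below the upper end, at 22.6% and 22.9% against 13.8% and 10.3%. The lower count was 9 without siRNA-2 and 5 without control 1, and the higher count was 14 without siRNA-1. Fewer values have to separate in those settings, and no share over all regions was taken for them.

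**Figure D4:**
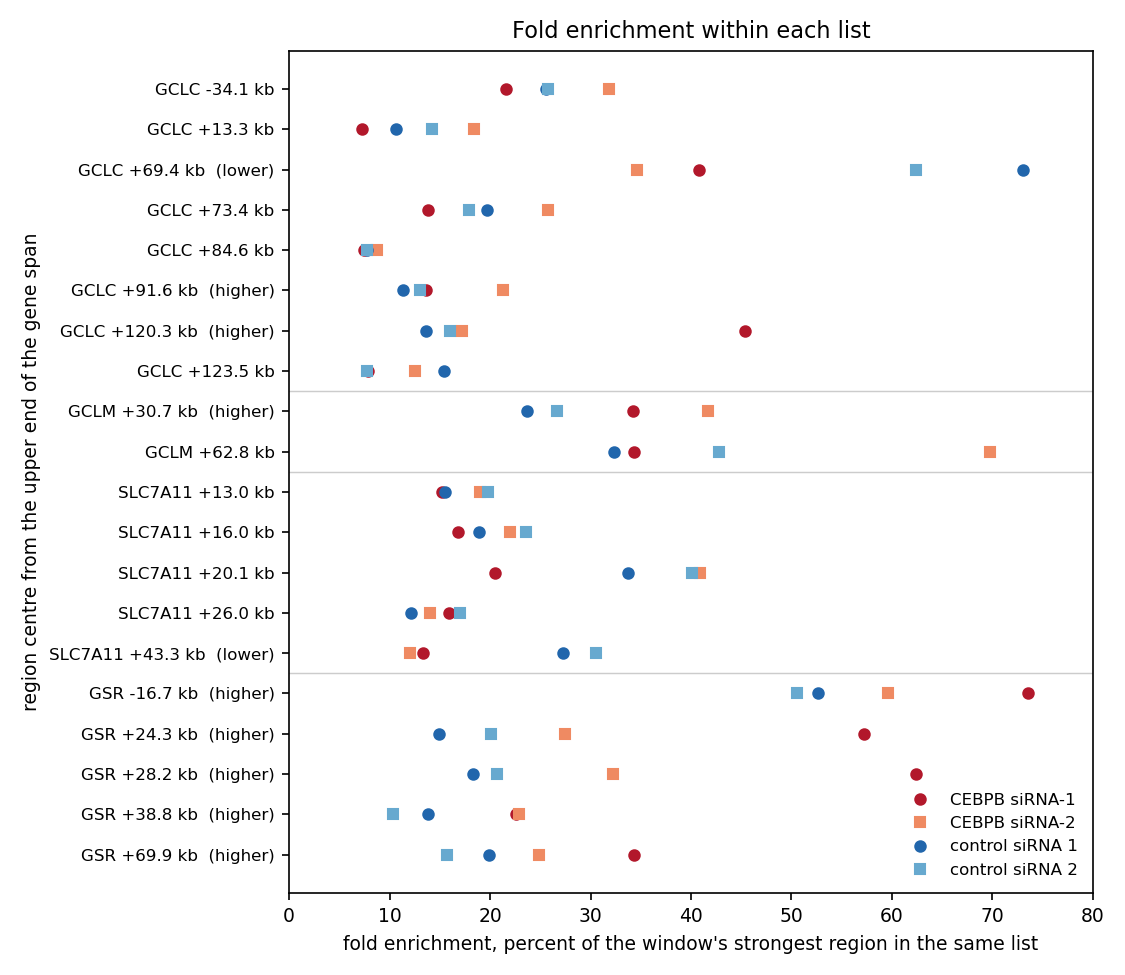
Fold enrichment of each of the 20 other shared regions, in percent of the strongest region of its gene window in the same list, with 1 point per library. All 5 rows of the GSR window, which include regions outside the gene span, have both siRNA points right of both control points. Their common denominator, the start region, had a lower deposited fold enrichment in both knockdown lists, with depth unknown. The GCLC row at +69.4 kb and the SLC7A11 row at +43.3 kb have both siRNA points left of both control points.

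Over the upper end of the span, the 4 summits lay within 64 bp for GCLM, 140 bp for GSR, 146 bp for GCLC and 598 bp for SLC7A11. Across the shared regions, the range of the 4 summit positions had a median of 252 bp in the 24 of these genes and of 199 bp over all 24133. It was at most 500 bp in 15 of 24, or 62.5%, against 69.4% of all. By gene that was 7 of 9 around GCLC, 2 of 3 around GCLM, 1 of 6 around SLC7A11 and 5 of 6 around GSR. Broad regions hold several local maxima, and the summit is the position of a region's most significant peak in each list.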

How the data were processed

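H3K27ac peak lists of 4 libraries were used; the 4 input libraries were not analysed here. Per the labels' protocols, libraries were read as single ends of 101 bases. MACS2 2.2.7.1, BWA 0.7.17 and SAMtools 1.7.0 were run on hg19, per the submitters' processing notes, with options and any use of the inputs not given in the sources used here. Each library has its own list. The deposited lists give each peak's ends and summit, the fold enrichment at the summit as a linear ratio, −log10 p and −log10 q values, and a score of 10 times the −log10 q. They hold no counts, so depth is unknown, and a missing peak is not missing acetylation. The 2 knockdown libraries differ in siRNA, so their spread includes that difference.

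Called length is the union of a library's peaks, clipped to the window. Groups were compared over libraries by exact permutation. Python 3.11.15, pandas 2.3.3 and NumPy 2.4.6 were used, and merging and counting were tested on simulated lists. The genes, regions and lists were chosen with earlier results of these data known. Regions named are those over the upper end of each span, gained and lost regions, and the 3 others per window with the highest −log10 q in any library; exceptions are stated. RefSeq genes on GRCh38.p14 served only for names, lengths, neighbours and promoter sequences. Other genes of the pathway, and genes of like pattern, were not placed, for want of an hg19 annotation. Alternatives are in the closing section.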

Additional observations from a re-analysis of the deposited data

How the results depend on the processing

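The GSR difference in called length (knockdown minus control) kept its sign in every alternative run. The GCLC difference of 1.399 kb was -0.06 kb at equal called length of the lists and ranged from -1.945 to 4.743 kb with 1 library left out. The GCLM difference of -0.0575 kb was 0.066 kb at a −log10 q of 10 or more and ranged from -1.352 to 1.237 kb. The SLC7A11 difference ranged from -3.1825 to 0.1625 kb with 1 library left out, and the GSR difference from 0.5595 to 2.1765 kb. Lost regions numbered 2 at 50% reciprocal overlap and 0 to 5 without 1 library. Gained regions numbered 3 at 50% reciprocal overlap, 0 at equal called length, 0 at a −log10 q of 10 or more and 0 after stitching within 10 kb, and 2 to 5 without 1 library. Shorter regions numbered 4 to 14 and longer regions 6 to 14 without 1 library; lower relative fold enrichment was counted in 2 to 9 and higher in 8 to 14. The cause was not tested, except that fewer calls or values are required without a library and that stitching counts fewer units. Shares over all regions were not taken without a library. The relative fold enrichment and its alternatives were chosen after seeing the data. With the replicate number as a block, the differences were the same by construction (GSR 1.368 kb, exact p = 0.5, the smallest it allows). Same-numbered libraries deviated together only weakly (r = 0.0642 over 24133 regions), and the labels do not say that a number pairs them. Unknown depth limits what a missing peak shows.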
